A study of Mus musculus with 6 samples.

Results

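Genes for cell-to-cell and cell-to-matrix adhesion were examined in ETX-embryos, embryo-like structures built from mouse stem cells of 3 kinds (ES, trophoblast and XEN, the last from extraembryonic endoderm). The set holds cadherins, protocadherins, claudins, integrin subunits, tight junction scaffolds, desmosome genes, connexins and the alpha and delta catenins. Members were chosen by a rule on gene names, in families picked with earlier results of these data known. The rule gave 55 of the 12826 genes in the deposited table (9 cadherins, 6 protocadherins, 8 claudins, 5 integrin alpha and 4 beta subunits, 4 tight junction scaffold or occludin genes, 7 desmosome genes, 6 connexins and 3 catenins). Cdh1 and Cdh2 were left out by that rule. The name pattern also caught 3 genes that are not integrins, Itgb1bp1, Itgb3bp and Itgb1bp2, and these were kept apart as integrin-binding proteins. RefSeq gives Cldn25 as a synonym of both Cldnd1 and Cldn25-ps, and Cldn26 as a synonym of Tmem114, so these entries may not be classical claudins.

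Epithelial cells hold together through a set of junctions. Tight junctions seal the space between cells with claudins and occludin anchored to Tjp scaffolds, adherens junctions join cadherins to actin through catenins, desmosomes join their own cadherins to keratin through plakophilins and desmoplakin, and connexins form channels between neighbours. Integrins are alpha-beta pairs that bind the surrounding matrix, and at gastrulation cells that leave the epiblast epithelium change both kinds of contact.

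The 6 libraries come from 3 ETX-embryos, A to C, all untreated and all carrying a T/Brachyury-GFP reporter. From each embryo the trophoblast part had been cut off, and the remaining embryonic part was split along its length into a GFP-negative piece (labelled anterior) and a GFP-positive piece (labelled posterior). Each piece gave 1 library, so each domain has 3 libraries. What limits the groups is that the pieces were dissected by hand and not sorted, and that GFP, not a measured axis, names the domain.

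T itself went with the labels in embryos A and B but not in C. Posterior A and B had 5.03 and 15.6 FPKM and their anterior pieces were listed at 0, while the library labelled anterior C had 42.5 FPKM and the one labelled posterior C was listed at 0. FPKM counts fragments relative to transcript length and library depth. The other 8 streak markers measured went with the labels in embryo C, for example Mixl1, at a log2 level of 0 in the piece labelled anterior and 4.97 in the one labelled posterior, and Wnt3, at 0.92 and 6.15. Of these 9 markers T alone went against the labels of embryo C, and results are also given without that embryo. The anterior libraries were shallower: relative to anterior A, taken as 1, the depth read from low values was 1.41 and 1.43 in the remaining anterior libraries and 1.56 to 2.82 in the posterior ones, and 37 to 46 of the 55 members were above 0 in an anterior library against 44 to 51 in a posterior one. Of all genes 22.3%, 13.6% and 27.2% were listed at 0 in anterior A, B and C. In posterior A, B and C the shares were 6.3%, 5.34% and 20%. A listed 0 may thus be a transcript that was missed. Depth and domain cannot be told apart in this design. In whole pieces, fewer cells of a type and less RNA per cell cannot be told apart either. Markers of visceral endoderm, the extraembryonic layer around the epiblast, summed to 44.43 and 52.13 (log2 levels of 13 markers) in anterior A and B, to 7.58 in the library labelled anterior C and to 30.61 to 40.53 in the posterior libraries. Epcam, an epithelial surface protein, lay between 5.24 and 7.26 in log2(FPKM + 1) in all 6 libraries, and Cdh1, the epithelial cadherin, between 5.54 and 7.19, so the pieces carried epithelial transcripts throughout. For Cdh1 every posterior library was above every anterior one, a pattern that 12.3% of the genes tested below had.

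**Figure D1:**
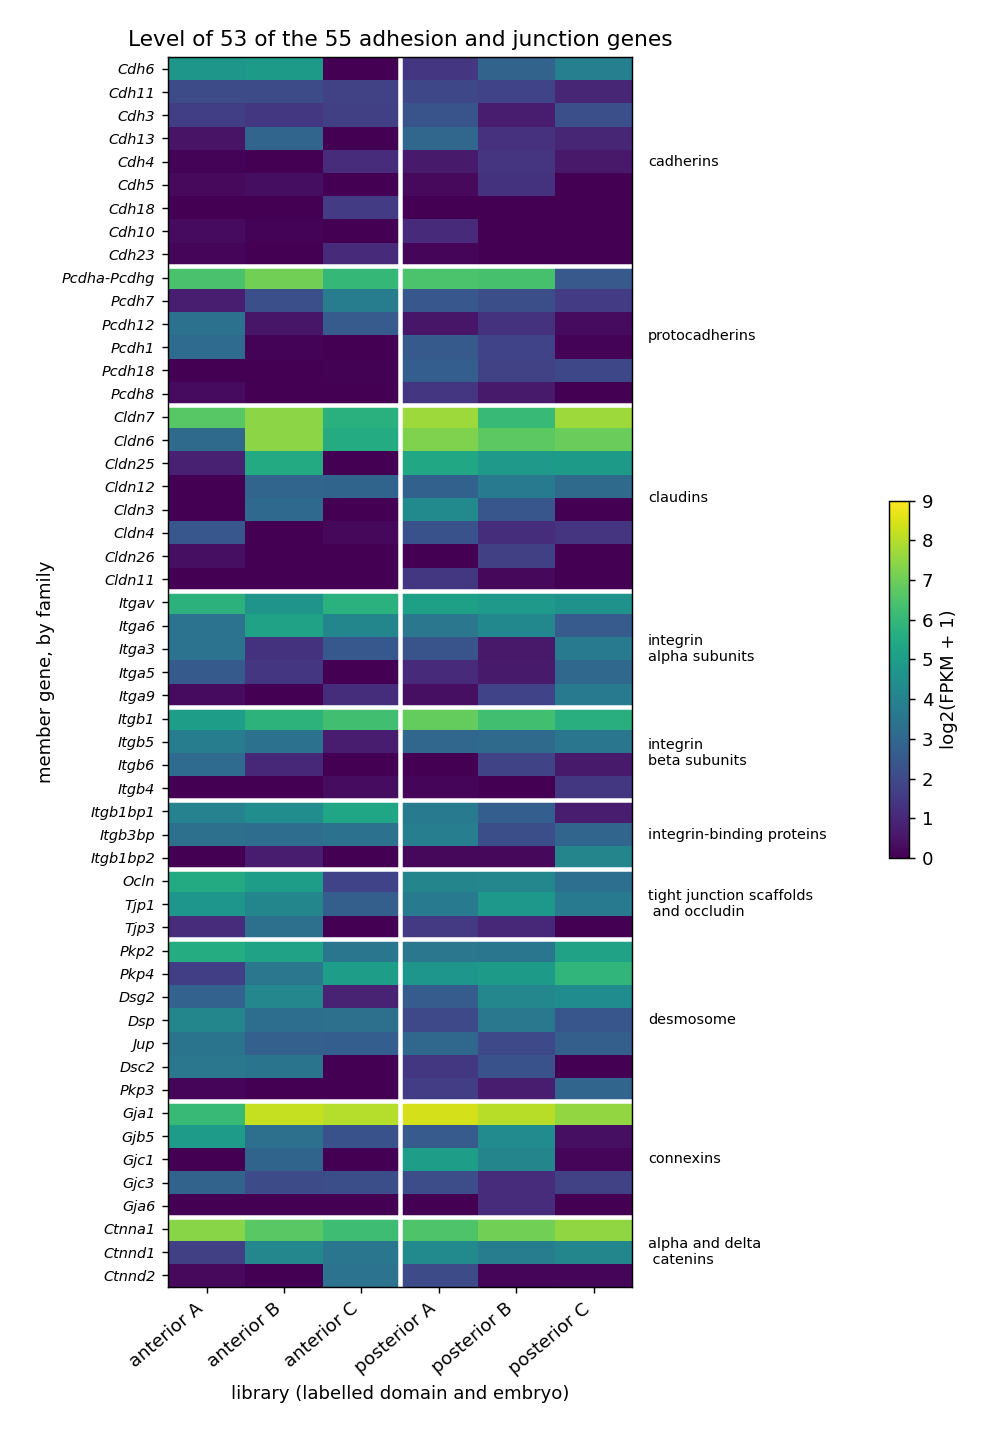
Level of 53 of the 55 members (rows, grouped by family) in each of the 6 libraries (columns, named by labelled domain and embryo), as colour on the log2(FPKM + 1) scale from 0 to 9. Gja1, Ctnna1, Cldn7, Itgb1 and the joined Pcdha-Pcdhg entry are bright in most libraries, and Dsc2 and Tjp3 are at 0 in both libraries of embryo C.

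All levels below are on the log2(FPKM + 1) scale unless FPKM is written, triplets of levels are in the order of embryos A, B and C with the anterior pieces first, and a difference is posterior minus anterior on that scale, with each embryo compared with itself. A member was tested where its mean over the 6 libraries reached 1 FPKM, which 45 of the 55 did, among 10914 tested genes in all. No member passed the adjusted threshold of 0.05 in limma with Benjamini-Hochberg adjustment over all tested genes (smallest adjusted p among members 0.608), where 0% of all tested genes passed (0 of 10914, the smallest being 0.211). At an unadjusted p under 0.05, 2 of the 45 tested members, Pcdh18 and Cldn25, were higher in the posterior domain, where 7.24% of all tested genes were, and no member was higher in the anterior domain, where 0.788% were. Pcdh18, Pkp3, Itga9 and Itgb1bp2 reached the mean of 1 FPKM only through their posterior libraries. Pcdh12 and Tjp3 did so only through their anterior ones. The filter thus favoured members that differ between the domains. The share of members did not exceed the background in either direction. The 3 libraries of each domain did not overlap for 2 members that were higher in the posterior domain, Pcdh18 and Pkp3 (background 12.3%), and for 1 that was higher in the anterior domain, Itgb1bp1 (background 3.77%). Over all 55 members the same 3 genes made up these counts, against 11.4% and 3.39% of all 12826 genes.

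Of the 45 tested members 24 were higher in the posterior domain on average and 21 in the anterior, while 64.9% of all tested genes were higher in the posterior domain. The median difference was 0.14 over the tested members and 0.43 over all tested genes, so the members' median minus that of all genes was -0.29. Quantile normalization gave -0.29 as well, with medians of -0.35 for the members and -0.06 for all genes. Centring libraries on their medians shifts every gene alike and cannot alter this gap, and gave -0.18 and 0.11. Without anterior A, with no block, the median was 0.25 over the members and 0.26 over all genes. After quantile normalization the unadjusted calls among members were 1 posterior and 2 anterior (Cldn25 against Itgb1bp1 and Pcdha-Pcdhg). Over all tested genes 4.7% and 2.89% were then called. After centring the member calls were 1 and 1, where 4.98% and 1.88% of all tested genes were called. The posterior piece was the higher in each of the 3 embryos for 6 of 45 members (Pcdh18, Pkp3, Pkp4, Cldn12, Itga9 and Gjc1), where 21.5% of all tested genes were, and the anterior piece in each for 3 (Itgb1bp1, Cdh11 and Gjc3), where 8.25% were.

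**Figure D2:**
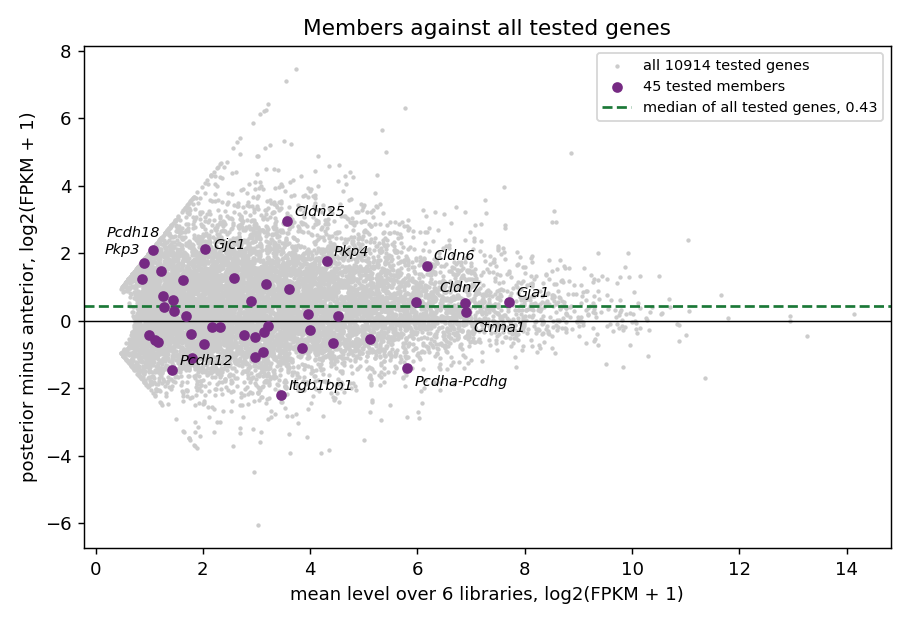
Posterior minus anterior difference (vertical axis, log2(FPKM + 1)) against the mean level over 6 libraries (horizontal axis, same scale) for all 10914 tested genes (grey) and the 45 tested members (purple), with the median of all tested genes as a dashed line at 0.43. The most abundant members, Gja1, Ctnna1 and Cldn7, lie close to that line, and Cldn25 (2.95) and Itgb1bp1 (-2.21) are farthest from 0.

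**Figure D3:**
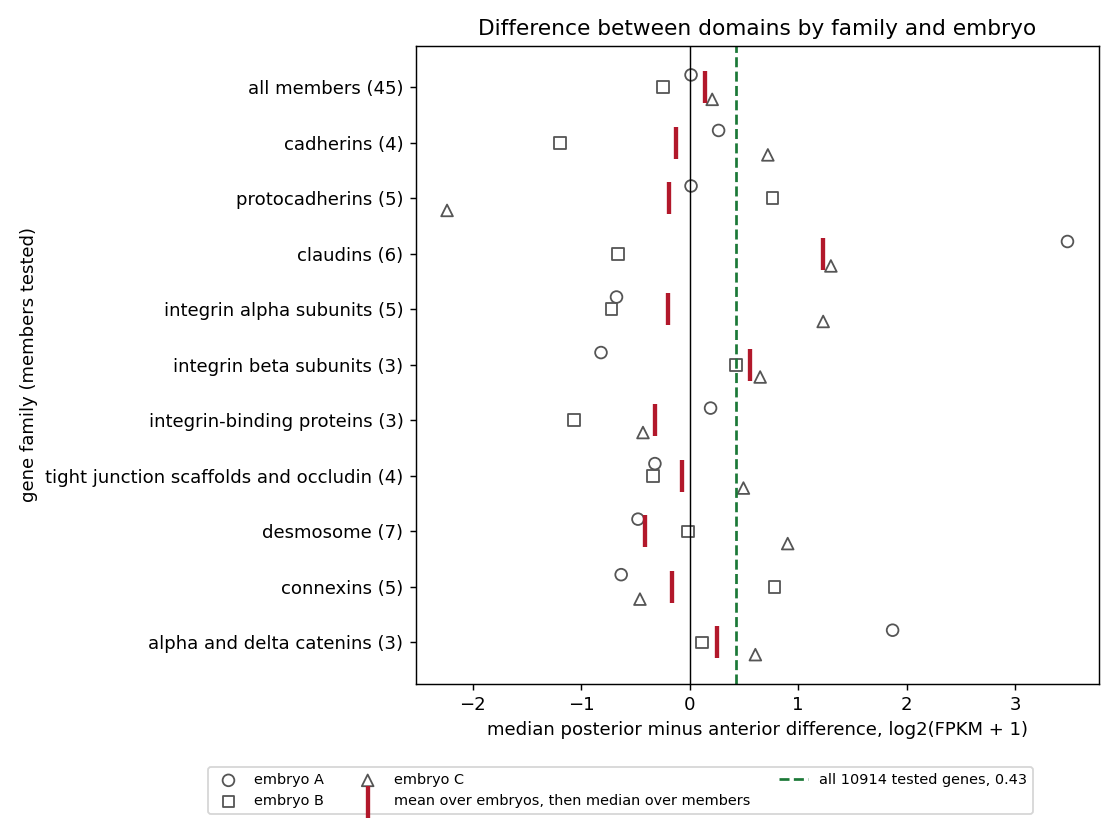
Median posterior minus anterior difference over the tested members of each family (horizontal axis, log2(FPKM + 1)), with circles for embryo A, squares for B and triangles for C, and for the differences averaged over embryos (red bar), with the number of tested members in brackets. The claudins have the highest red bar (1.23), with embryo A at 3.48 and embryo B at -0.66, and in most families the embryos fall on both sides of 0.

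Claudins, the sealing strands of tight junctions, were the family with the highest median difference, and embryo B did not share it. All 6 tested claudins were higher in the posterior domain on average, with a median of 1.23, and the sign held under centring (0.91), quantile normalization (0.90) and without any single embryo (0.36 without A). By embryo, however, 5 of 6 were higher in the posterior library of A (median 3.48), 2 of 6 in B (median -0.66) and 5 of 6 in C (median 1.30). Over all 10914 tested genes 64.9% were higher in the posterior domain on average. By embryo 7397, 5543 and 5845 of them were higher in the posterior library of A, B and C (medians 0.913, 0.025 and 0.166).

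Cldn7 and Cldn6 were the abundant claudins, at means of 133.1 and 100.9 FPKM. Cldn6, a claudin of early embryonic epithelia, was at 3.10, 7.42 and 5.54 in the 3 anterior pieces and at 7.27, 6.74 and 6.95 in the 3 posterior ones. The posterior libraries were alike and the anterior ones spread widely, with anterior B the highest of all 6, so the domains overlapped. The difference was 1.63 ± 0.92 (SE, 95% interval -0.44 to 3.71, limma adjusted p 0.648), and it was 0.51 without anterior A with no block. Cldn7 was at 6.67, 7.43 and 5.73 (anterior) against 7.67, 6.09 and 7.68 (posterior), high in every library, with a difference of 0.54 ± 0.77 (95% interval -1.19 to 2.27).

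The entry named Cldn25 was at 0.81, 5.50 and 0 (anterior) against 5.40, 4.85 and 4.90 (posterior). It was low in anterior A and in the library labelled anterior C, and highest of all in anterior B. Its difference of 2.95 ± 1.20 was the largest of any tested member (unadjusted p 0.0352, limma adjusted p 0.608), and it lost the unadjusted call without embryo A (2.13, p 0.0966), without embryo C (1.97, p 0.127), without anterior A alone (2.30, p 0.132) or without anterior C alone (1.89, p 0.16), the last 2 with no block. Cldn12, which lacks the usual scaffold-binding tail, was at 0, 2.93 and 2.90 against 2.79, 3.71 and 3.11, higher in the posterior library of each embryo.

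Cldn3 and Cldn4 are barrier claudins whose genes lie 39280 bases apart on chromosome 5 (GRCm38, Cldn3 at 134986214 onward and Cldn4 at 134945119 onward), and they did not share a pattern. Cldn3 was at 0, 3.09 and 0 (anterior) against 4.28, 2.41 and 0 (posterior), so both libraries of embryo C were listed at 0. Cldn4 was at 2.44, 0 and 0.20 (anterior) against 2.28, 1.18 and 1.39 (posterior), lowest in anterior B where Cldn3 was present. The 250 bases before the RefSeq start of these neighbours, and of the more abundant Cldn7, are shown to set the promoters of differently expressed claudins side by side (GRCm38.p6, 5′ to 3′ on the strand of the gene). They are chr5:134985964-134986213 on the plus strand for Cldn3, chr5:134946935-134947184 on the minus strand for Cldn4 and chr11:69964529-69964778 on the plus strand for Cldn7. Capitals mark the E-box CACCTG, the letters bound by Snail and Zeb factors, and the GC box GGGCGG, the letters bound by Sp factors, each searched on both strands.
Cldn3: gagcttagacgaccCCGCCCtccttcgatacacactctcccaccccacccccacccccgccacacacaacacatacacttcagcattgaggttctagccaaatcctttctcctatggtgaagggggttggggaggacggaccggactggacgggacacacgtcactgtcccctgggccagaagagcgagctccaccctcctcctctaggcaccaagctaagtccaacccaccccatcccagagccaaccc
Cldn4: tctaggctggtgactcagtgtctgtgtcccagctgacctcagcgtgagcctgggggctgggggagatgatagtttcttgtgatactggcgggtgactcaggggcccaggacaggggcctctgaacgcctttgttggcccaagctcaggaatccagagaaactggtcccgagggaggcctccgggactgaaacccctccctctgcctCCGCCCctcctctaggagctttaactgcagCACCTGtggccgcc
Cldn7: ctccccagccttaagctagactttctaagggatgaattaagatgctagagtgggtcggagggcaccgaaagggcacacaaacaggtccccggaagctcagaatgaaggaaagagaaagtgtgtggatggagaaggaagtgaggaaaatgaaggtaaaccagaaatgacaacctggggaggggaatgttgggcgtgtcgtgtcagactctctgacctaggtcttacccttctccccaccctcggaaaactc
Cldn3 holds 1 GC box, Cldn4 holds 1 GC box and 1 E-box, and neither motif is in the Cldn7 window. Among 32851 RefSeq promoter windows of this length 17.2% hold the E-box and 32.7% the GC box, and the TATA box TATAAA, in 12.4% of windows, is in none of these 3. The motifs share no overlapping letters here. RefSeq promoters matched 34 of the 55 members by symbol.

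Tight junction scaffolds and occludin were present in most libraries, without a shared direction. Tjp1 and Tjp3 (ZO proteins) tie claudins to actin, and occludin is a membrane protein of the same strands. Ocln was at 5.50, 5.06 and 1.82 (anterior) against 4.09, 4.16 and 3.30 (posterior), higher in the anterior library of A and B and lower in that of C, with a difference of -0.28 ± 0.92 that turned to 0.29 without embryo A. Tjp1 ran from 2.72 (labelled anterior C) to 4.79 (posterior B). Tjp3 was at 1.14, 3.32 and 0 (anterior) against 1.54, 1.01 and 0 (posterior), again at 0 in both libraries of embryo C (difference -0.64 ± 0.94). The family median was -0.07.

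Catenins link cadherins to the cytoskeleton, and the most abundant one was high in every library. Ctnna1, alpha-catenin, was second among the members by mean log2 level, at a mean of 124.8 FPKM. It was at 7.41, 6.70 and 6.22 (anterior) against 6.51, 7.07 and 7.50 (posterior), so the domains overlapped, and the difference was 0.25 ± 0.69 (95% interval -1.29 to 1.80). Its sign turned under quantile normalization (-0.09) and under centring (-0.06), the latter through the shift common to all genes. Ctnnd1, p120-catenin, which holds cadherins at the membrane, was at 1.69, 4.16 and 3.54 against 4.28, 3.82 and 4.14, low in anterior A and close together in the other 5 libraries (difference 0.95 ± 0.96). Ctnnd1 shares 61.2% of its annotated exonic bases with Gm28635 on the same strand, so reads in the shared bases cannot be assigned to 1 of the pair. Ctnnd2, a neural delta-catenin, stood at 3.41 in the library labelled anterior C and at 2.10 in posterior A, and at 0.23 or less in the other 4.

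Among the cadherin members, which leave out Cdh1 and Cdh2, only Cdh6 exceeded a log2 level of 3 in any library. It differed between the pieces in opposite directions among the embryos. Cdh6, a cadherin found in early epithelia and mesoderm, was at 4.78, 4.89 and 0 (anterior) against 1.42, 2.87 and 3.90 (posterior). It was higher in the anterior library of A and B and, the opposite way, listed at 0 in the library labelled anterior C. Its difference was -0.49 ± 1.38 over 3 embryos and -2.69 ± 1.08 without embryo C (unadjusted p 0.0271, limma adjusted p 0.409). Cdh11, a mesenchymal cadherin, was at 2.10, 2.10 and 1.75 against 1.96, 1.82 and 0.98, slightly higher in the anterior library of each embryo (-0.40 ± 0.94). Cdh3, placental cadherin, lay between 0.71 and 2.34 in all 6 libraries. Cdh13, a cadherin without a cytoplasmic tail, was at 0.47, 2.93 and 0 against 2.96, 1.30 and 0.95, with a difference of 0.60 ± 1.05. The other 5 were below a mean of 1 FPKM and were not tested. Of these Cdh18 was above 0 only in the library labelled anterior C (1.60), Cdh5, the endothelial cadherin, was highest in posterior B (1.32), and Cdh4, Cdh10 and Cdh23 reached at most 1.39.

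Protocadherins held 1 of the 3 members whose domains did not overlap. Pcdh18, a delta-protocadherin of mesodermal and neural tissue, was at 0, 0 and 0.07 (anterior) against 2.68, 1.76 and 1.94 (posterior). All 3 posterior libraries were above all 3 anterior ones, embryo C included. Its difference was 2.10 ± 0.85 (95% interval 0.19 to 4.02, unadjusted p 0.0344, limma adjusted p 0.608), at a mean of 1.78 FPKM, where the anterior pieces contributed almost nothing to that mean. The unadjusted call was lost after centring (1.79, p 0.0541), after quantile normalization (1.21, p 0.164), with a pseudocount of 10 (0.43, p 0.0615), without embryo A (1.82, p 0.163) and without embryo B (2.28, p 0.146). In the same libraries the markers of streak and nascent mesoderm, of which 9 were in the table, numbered 0, 2 and 4 above 0 (anterior) against 9, 9 and 8 (posterior), with sums of 0 to 7.94 against 35.24 to 40.60 in log2 levels. Their part in the result was not tested.

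The alpha and gamma protocadherin clusters form 1 joined row of the deposited table, called Pcdha-Pcdhg here, and the single genes cannot be separated. It was sixth among the members by mean log2 level, at 6.42, 7.09 and 6.0 (anterior) against 6.44, 6.38 and 2.52 (posterior). The library labelled posterior C was low and the other 5 were close together. The difference was -1.39 ± 0.84 over all embryos and -0.35 without embryo C. Pcdh12, a protocadherin of endothelium and trophoblast, was at 3.35, 0.54 and 2.59 (anterior) against 0.56, 1.30 and 0.25 (posterior), higher in the anterior library of A and C. Pcdh7 was at 0.75, 2.21 and 3.81 against 2.46, 2.18 and 1.58, Pcdh1 was above 2 only in anterior A (3.14) and posterior A (2.55), and Pcdh8, a streak and somite protocadherin outside the test, was at 0.25, 0 and 0 against 1.42, 0.66 and 0.

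**Figure D4:**
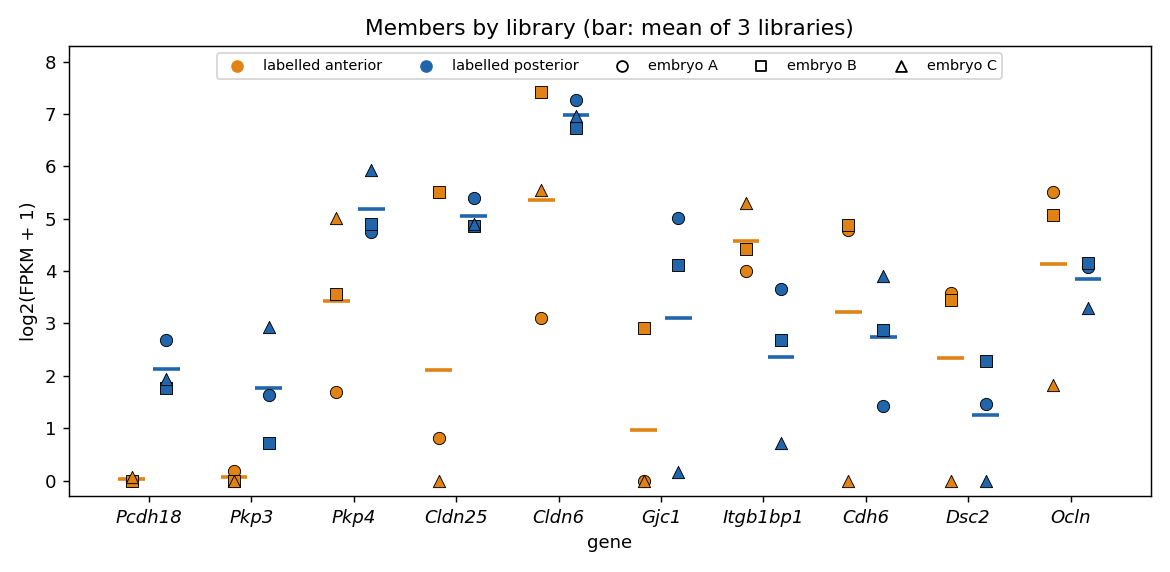
Level of 10 members in log2(FPKM + 1) (vertical axis), 1 point per library, with colour for the labelled domain (orange anterior, blue posterior) and shape for the embryo (circle A, square B, triangle C), and a bar at the mean of each domain. Pcdh18 and Pkp3 are above the anterior libraries in all 3 posterior ones, Itgb1bp1 is below them, and for Cdh6, Dsc2 and Ocln the anterior points of A and B lie above all 3 posterior points while anterior C lies at or below them.

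Desmosome genes did not share a direction. Of the 7, 4 were higher in the anterior domain on average and 3 in the posterior (median -0.41), while the embryo medians were -0.48, -0.02 and 0.90. Pkp3, a plakophilin of epithelial desmosomes, was at 0.17, 0 and 0 (anterior) against 1.64, 0.71 and 2.94 (posterior), higher in all 3 of the latter (difference 1.70 ± 0.87, unadjusted p 0.0806). It too passed the filter only through its posterior libraries, and without a filter the unadjusted p was 0.0468. Its groups overlapped after centring and after quantile normalization. Pkp4, a relative of p120-catenin found at adherens junctions, was at 1.68, 3.56 and 5.02 against 4.74, 4.89 and 5.93, higher in the posterior library of each embryo but with anterior C above posterior A and B (1.76 ± 0.85, unadjusted p 0.0671, 0.90 without anterior A with no block).

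Pkp2, another plakophilin, and Dsc2 were higher in the anterior pieces of embryos A and B. Pkp2 was at 5.57, 5.18 and 3.52 (anterior) against 3.57, 3.52 and 5.18 (posterior). Dsc2, a desmosomal cadherin, was at 3.58, 3.45 and 0 (anterior) against 1.46, 2.28 and 0 (posterior), listed at 0 in both libraries of embryo C. Its partner Dsg2 was at 2.85, 4.17 and 0.89 against 2.63, 4.15 and 4.39, level between the pieces of A and B and low only in the library labelled anterior C. Dsp, desmoplakin, and Jup, plakoglobin, were above 0 in all 6 libraries, from 2.0 to 4.13 and from 2.0 to 3.47. Members at 0 in both libraries of embryo C and above 0 in the other 4 were Dsc2 and Tjp3, 2 of the 45 tested, where 1.91% of all tested genes had that pattern.

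Connexins were led by Gja1, connexin 43, the most abundant member of the whole set at a mean of 233.9 FPKM. It was at 6.09, 8.21 and 8.01 (anterior) against 8.41, 8.03 and 7.55 (posterior), low only in anterior A. The difference was 0.56 ± 0.71 (95% interval -1.05 to 2.16) and turned to -0.32 without embryo A. Gjc1, connexin 45, was at 0, 2.91 and 0 (anterior) against 5.02, 4.11 and 0.17 (posterior), higher in the posterior library of each embryo yet near 0 in both libraries of C (2.13 ± 1.17, unadjusted p 0.0994, and 0.68 without embryo A).

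Gjb5, a beta connexin of trophoblast and epidermis, was at 4.98, 3.32 and 2.26 (anterior) against 2.60, 4.34 and 0.37 (posterior). It was highest in anterior A and lowest in the library labelled posterior C, the domains overlapped, and the difference was -1.09 ± 1.05. Of 11 measured trophoblast markers, 7 to 9 were above 0 in the anterior and 8 to 11 in the posterior libraries, with sums from 30.97 to 37.13 and from 24.95 to 32.55 in log2 levels. Elf5 and Esx1 were at 0 in 4 of the 6 libraries, while Gata3, Tfap2a, Krt8, Krt18, Hand1 and Bmp4 were above 0 in all 6. The part of these markers in the Gjb5 level was not tested. Gjc3 lay between 1.16 and 2.88, and Gja6 was above 0 only in posterior B (1.13) and was not tested.

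Integrins of both domains were led by the same subunits. Itgb1, the beta subunit shared by most laminin, collagen and fibronectin receptors, was at 5.01, 5.83 and 6.27 (anterior) against 6.86, 6.26 and 5.64 (posterior). The pieces changed places between embryos, with posterior above anterior in A and B and below it in C, and the difference was 0.55 ± 0.75 (95% interval -1.13 to 2.23). Itgav, an alpha subunit of receptors for vitronectin and fibronectin, was at 5.77, 4.66 and 5.74 against 5.10, 4.84 and 4.60, at a mean of 35.8 FPKM. Itga6, a laminin receptor subunit, was at 3.44, 5.19 and 4.13 against 3.57, 4.20 and 2.60 (difference -0.80 ± 0.87).

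The remaining integrin subunits were lower. Itga5, the fibronectin receptor alpha subunit, was at 2.54, 1.42 and 0 (anterior) against 1.10, 0.66 and 3.02 (posterior), and Itgb5, which pairs with Itgav, was at 3.78, 3.34 and 0.70 against 2.97, 3.10 and 3.54. In A and B both had the higher level in the anterior piece and in C the lower, and the difference of Itgb5 was 0.59 ± 1.07 with embryo C and -0.53 without it. Itga9 was at 0.27, 0 and 1.19 against 0.35, 1.81 and 3.69, higher in the posterior library of each embryo (1.46 ± 0.92), though in embryo A by less than in the others. The domains overlapped, with anterior C above posterior A. It passed the filter only through its posterior libraries. Itga3, another laminin receptor subunit, ranged from 0.60 to 3.72, Itgb6 was highest in anterior A (3.15), and Itgb4, untested, reached 1.44 in posterior C.

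Itgb1bp1, a cytoplasmic protein that binds the tail of Itgb1 and restrains its activation, was the 1 member with all anterior libraries above all posterior ones. It was at 4.0, 4.41 and 5.29 (anterior) against 3.66, 2.69 and 0.72 (posterior), so the posterior minus anterior difference was -0.34 in embryo A and -4.57 in embryo C. The difference was -2.21 ± 1.05 (95% interval -4.57 to 0.15, unadjusted p 0.0634, limma adjusted p 0.622), and it was -1.03 without embryo C. Its exons share 11.4% of their bases with Asap2 and 5.54% with Cpsf3 on the opposite strand, and no source used here states strand-specific counting, so part of these reads could not be assigned with certainty. The same limit applies to other members with opposite-strand overlaps, among them Pcdh7 (21.1%), Pcdh8 (9.61%), Itgb3bp (8.59%) and Itgb4 (7.66%). Itgb1bp2, melusin, a muscle protein, was at 4.08 in the library labelled posterior C and at 0.73 or less in the other 5 (difference 1.24 ± 1.05). It passed the filter only through posterior C. Itgb3bp, a centromere protein despite its name, lay between 2.16 and 3.87.

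In embryos A and B alone both anterior libraries were above both posterior ones for 8 of 41 tested members (Cdh6, Cdh11, Dsc2, Itga5, Itgb5, Ocln, Pkp2 and Itgb1bp1), where 14.1% of all tested genes were, and the posterior ones were above for 4 (Pcdh18, Pkp4, Gjc1 and Itgb1), where 31.2% were. The median difference over members was then -0.21, against 0.48 over all tested genes. At an unadjusted p under 0.05 the calls were Pcdh18 and Gjc1 in the posterior (background 9.13%) and Cdh6 in the anterior domain (background 1.46%), and no member passed after adjustment. Anterior A and B were also the libraries with the largest sums of visceral endoderm markers (11 of 13 markers above 0 in each), with Rbp4 at 8.63 and 9.16 and Ttr at 6.53 and 6.84, against 3 of 13 above 0 in the library labelled anterior C, where Rbp4 and Ttr were at 0. Other markers of the visceral endoderm list went another way. Lrp2 was highest in anterior C (6.75), Foxa1 and Sox17 in posterior C (3.99 and 4.39), and Apob, Hnf4a and Dab2 in posterior B. Markers of parietal endoderm and extraembryonic endoderm stem cells summed to 54.11 and 62.89 in anterior A and B, 28.49 in anterior C and 42.78 to 54.77 in the posterior libraries (12 markers). Their part in the members' levels was not tested.

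Differences among the 3 individuals were tested in the same fit. No member passed limma's F test after adjustment (smallest adjusted p among members 0.996), where 0% of all tested genes did, and none had an unadjusted p under 0.05, where 2.77% did. Dsc2, Pcdha-Pcdhg, Pcdh1 and Gjc1 were among the 6 members with the smallest unadjusted p. With the variance not tied to the mean level 2 members had an unadjusted p under 0.05 and with a pseudocount of 0.1 or after quantile normalization 1 did.

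Genes that work with the members were read from lists of partners. Over all tested genes, for comparison, 64.9% were higher in the posterior domain, the median difference was 0.43, 7.24% were past an unadjusted p of 0.05 in that direction and 12.3% had every posterior library above every anterior one. Among tight junction and polarity partners 10 of 19 tested were higher in the posterior domain on average (median 0.16), and 3 were past an unadjusted p of 0.05, all in the posterior direction and none after adjustment. Crb3, an apical polarity protein, was at 0.25, 0 and 0.32 (anterior) against 5.12, 3.34 and 4.85 (posterior) (difference 4.25 ± 0.98, limma adjusted p 0.520). Marveld2, tricellulin, which closes the corners between 3 cells, was at 0, 0.16 and 0.56 against 2.08, 2.80 and 4.11, and Jam3, a junctional adhesion molecule, at 0.47, 0 and 0 against 1.98, 2.94 and 3.11 (limma adjusted p 0.566 and 0.573). All 3 had every posterior library above every anterior one. Like Pcdh18, they reached the mean of 1 FPKM only through their posterior libraries, so the filter favoured this direction.

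Among adherens junction partners 9 of 14 were higher in the posterior domain (median 0.35) with none at an unadjusted p under 0.05, and Pvrl1, nectin-1, did not overlap (0.19, 0 and 1.15 against 2.38, 1.45 and 2.31). Pvrl1 too reached the filter only through its posterior libraries. Integrin adaptors had 11 of 15 higher in the posterior domain (median 0.22) and 1 past the unadjusted threshold, the actin regulator Vasp, at 1.22, 3.49 and 0.43 against 4.52, 4.67 and 6.02. Matrix ligands of integrins had 4 of 14 higher in the posterior domain (median -0.42, none past the unadjusted threshold). Col4a1, a basement membrane collagen that is also among the parietal endoderm markers above, was at 7.89, 8.12 and 3.64 (anterior) against 4.31, 4.74 and 5.65 (posterior), following the same order as Cdh6, with the library labelled anterior C lowest and anterior A and B highest. Nid1, on both of these lists as well, did not follow that order. It was at 0.55, 1.76 and 0.06 against 0.48, 2.39 and 4.87 (difference 1.79 ± 1.16), with posterior C highest. In a list of epithelial regulators, which also held Epcam and Cdh1, 6 genes were tested and 3 were higher in each domain. Klf5 was past the unadjusted threshold in the posterior and Elf3 in the anterior direction (limma adjusted p 0.608 and 0.612). The domains did not overlap for Klf5 and Cdh1, higher in the posterior, and for Elf3, higher in the anterior (background 12.3% and 3.77%).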

How the data were processed

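Smart-seq2 libraries (18 preamplification cycles, HiSeq 2500) were made from 6 dissected pieces, and reads were assigned to Ensembl 38.77 genes by HTSeq-count, per the labels' protocols. TopHat2 2.0.4 and Cufflinks 2.0.2 with mm10 appear in the submitters' processing notes, and no source used here says which of these tools gave the values. The authors deposited log2 values, read as log2(FPKM + 1) because 2 raised to the value, less 1, has at most 6 significant digits for 99.1% to 99.5% of entries above 3. No read totals are given, and exact zeros are reported as listed at 0.

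Genes whose mean reached 1 FPKM were fitted in limma 3.58.1 (R 4.3.3) with embryo blocks and a variance trend, two-sided, with Benjamini-Hochberg adjustment (2 residual and 7.5 prior degrees of freedom). The script was tested on simulated data. The block follows the dissection: paired pieces correlated at -0.07, 0.04 and -0.03 in their deviations from group means. Families, lists and members were chosen with earlier results of these data known. Named genes were, per family, up to 5 by level and up to 5 by p. To these were added all with domains that do not overlap, the 6 with the smallest p among embryos and up to 3 per partner list. Epcam, Cdh1, single cell type markers such as Rbp4, Ttr and Elf5, and the comparison of Cdh6 without embryo C were picked after values were seen. Promoters are from RefSeq (GRCm38.p6), using windows free of exons in GENCODE M21, which also gave positions and exon overlaps. An endothelium and blood list had 3 of 10 markers in the table, 1 to 3 above 0 per library.
Alternatives were other pseudocounts, filters, scalings and fits, and leaving out embryos or single pieces. Values of 2 members are not reported here, and the counts and medians include them.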

Additional observations from a re-analysis of the deposited data

How the results depend on the processing

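Of the alternatives for counts and medians 174 moved the value by no more than 1.5 times (counts) or the spread between embryos (medians) and 41 moved it further, and of those for single members 278 kept their direction and 20 turned it; the cause was not tested. No member passed the adjusted threshold in any setting, while over all genes the count was 0 to 25 when an embryo or piece was left out (25 without A, 8 without C, 1 without anterior C). Members higher in the posterior domain at an unadjusted p under 0.05 numbered 0 with a pseudocount of 10, 1 with a mean of at least 5 FPKM, 1 after centring, 1 after quantile normalization and 0 to 2 in the leave-outs. Over all genes the shares in the same order were 6.14%, 7.31%, 4.98%, 4.7% and 4.62% to 9.13%. Those higher in the anterior domain numbered 1 after centring, 2 after quantile normalization and 0 to 2 in the leave-outs, and 1 (Itgb1bp1) with no replicate block, that is without pairing the pieces of an embryo. Here the shares over all genes were 1.88%, 2.89%, 0.519% to 1.96% and 1.09%. Members with domains that did not overlap numbered, in the posterior direction, 0 with the filter at 5 FPKM, 1 after centring, 1 after quantile normalization and 3 to 10 in the leave-outs, and, in the anterior direction, 2 after centring, 2 after quantile normalization and 1 to 8 in the leave-outs. Over all genes the share without overlap in the posterior direction was 12.5% with the filter at 5 FPKM. Posterior and anterior shares were 8.79% and 6.73% after centring, and 7.21% and 8.6% after quantile normalization. In the leave-outs they rose to 15.8% to 31.2% and 8.62% to 14.1%, and the 10 of 44 members without B stand beside 29.7%. Members differing among embryos numbered 1 with a pseudocount of 0.1, 1 after quantile normalization and 2 with no variance trend.

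The median difference over members was -0.177 after centring, -0.347 after quantile normalization and -0.211 to 0.251 in the leave-outs. Leave-out medians ran from -0.531 to 0.724 for integrin beta subunits, -0.876 to 0.036 for tight junction scaffolds and occludin and -0.582 to 0.629 for connexins, and the integrin-binding proteins had -1.267 with the filter at 5 FPKM. Single members that turned sign were Cdh13 (-0.001 after quantile normalization, -0.343 to 1.724 in the leave-outs), Itgb5 (-0.144 and -0.531 to 1.297), Ctnna1 (-0.062 after centring, -0.086 after quantile normalization, -0.26 to 0.829), Cdh6 (0.359 with a pseudocount of 0.1, -2.686 to 0.943), Itgb1 (-0.098 to 1.14), Ocln (-1.432 to 0.407), Gja1 (-0.321 to 1.065) and Cldn7 (-0.171 to 1.478). With 3 embryos and a median standard error of 0.95 among members, small differences could not be resolved, and Pkp3 has no value without embryo C because it then fails the filter.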

Other observations

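Pcdh12 and Pcdh1, 2 protocadherins, are also neighbours, with their genes 55036 bases apart. Pcdh12 was at 3.35, 0.54 and 2.59 in log2(FPKM + 1) in the anterior pieces of A, B and C, and Pcdh1 was at 3.14, 0.09 and 0, so both were high in anterior A and the library labelled anterior C held Pcdh12 alone. Of the claudin entries outside the test, Cldn26 was above 0 in anterior A (0.36) and posterior B (1.72), and Cldn11, a claudin of myelin and testis, in posterior A (1.46) and posterior B (0.19).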
